A study of Mus musculus with 8 samples.

Results

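This account concerns 10 genes of the interleukin-17 (IL-17) and interleukin-22 (IL-22) mucosal defence axis in mouse endometrium, the mucosa lining the uterus, collected 8 h after coitus. They are the ligand genes Il17a, Il17c, Il22 and Il23a, the receptor genes Il17ra, Il17rc, Il17re, Il22ra1 and Il10rb, and Il22ra2, which encodes a soluble receptor. Members were the rows of the authors' deposited comparison table whose gene symbol equalled one of these names, and all 10 were found, each on 1 transcript cluster (the probe group that reads 1 transcript unit), among 24647 distinct symbols on 41345 clusters.

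Females were first-generation hybrids of CBA and C57Bl/6 mice, mated around estrus with Balb/c males. The males were either Intact, so that seminal fluid was delivered, or SVX/VAS, an abbreviation the labels do not expand. SVX/VAS matings served as those without seminal fluid. Whether they still delivered any part of the ejaculate, and what part sperm had in the contrast, was not measured. Both groups had therefore mated, and ages are not given in the labels. Endometrium was scraped from the opened uterus, and RNA from 4 females was pooled for each Affymetrix Mouse Gene 2.0 ST array, with 4 arrays and 16 females in each group. Replicates were thus pools of different animals. Each value is a log2 expression level per array, in which a difference of 1 is a doubling, and medians over all clusters ran from 5.35 to 5.41 between arrays. No detection calls were used, the number of arrays limits the precision, and in this bulk tissue fewer cells of a type and less RNA per cell cannot be told apart.

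IL-17 cytokines act through paired receptor chains: IL-17A uses IL-17RA with IL-17RC, and IL-17C uses IL-17RA with IL-17RE. IL-17A and IL-22 come mostly from type 17 T cells and innate lymphoid cells that IL-23 sustains, whereas IL-17C is made largely by epithelial cells themselves. IL-22 acts on epithelia through IL-22RA1 with IL-10RB, and the soluble receptor encoded by Il22ra2, also called IL-22 binding protein, captures it. At mucosal surfaces these signals are known for inducing neutrophil-attracting chemokines and antimicrobial proteins.

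After Intact mating the epithelial ligand gene Il17c was 2.85-fold higher and the IL-22 receptor gene Il22ra1 was 2.06-fold higher, and in both every Intact pool lay above every SVX/VAS pool. Il23a was 1.32-fold higher with the same separation by a narrow gap. The lymphocyte ligand genes Il17a and Il22 and the receptor genes Il17ra, Il17rc, Il17re and Il10rb had differences of at most 1.16-fold in either direction, and Il22ra2 was 1.11-fold higher. No member passed a Benjamini-Hochberg adjusted p of 0.05 over all clusters in limma's moderated test, against 34 of all clusters (0.0822%) that did, 0.0508% higher and 0.0314% lower. At an unadjusted p under 0.05 in limma, which 11.9% of all clusters reached, 3 members were higher (Il22ra1, Il17c and Il23a), against 5.13% of clusters, and 0 were lower, against 6.78%. The submitters required a change of 1.5-fold or more and an unadjusted p under 0.05, which 1.86% of clusters met in the authors' deposited table. Il17c and Il22ra1 met these criteria as higher, against 0.733% of clusters, and 0 members as lower, against 1.12%. Groups did not overlap in 3 members, all of them higher, against 8.17% of all clusters, 3.37% higher and 4.81% lower. The median log2 difference of the 10 was 0.10 against 0.0005 over all clusters.

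**Figure D1:**
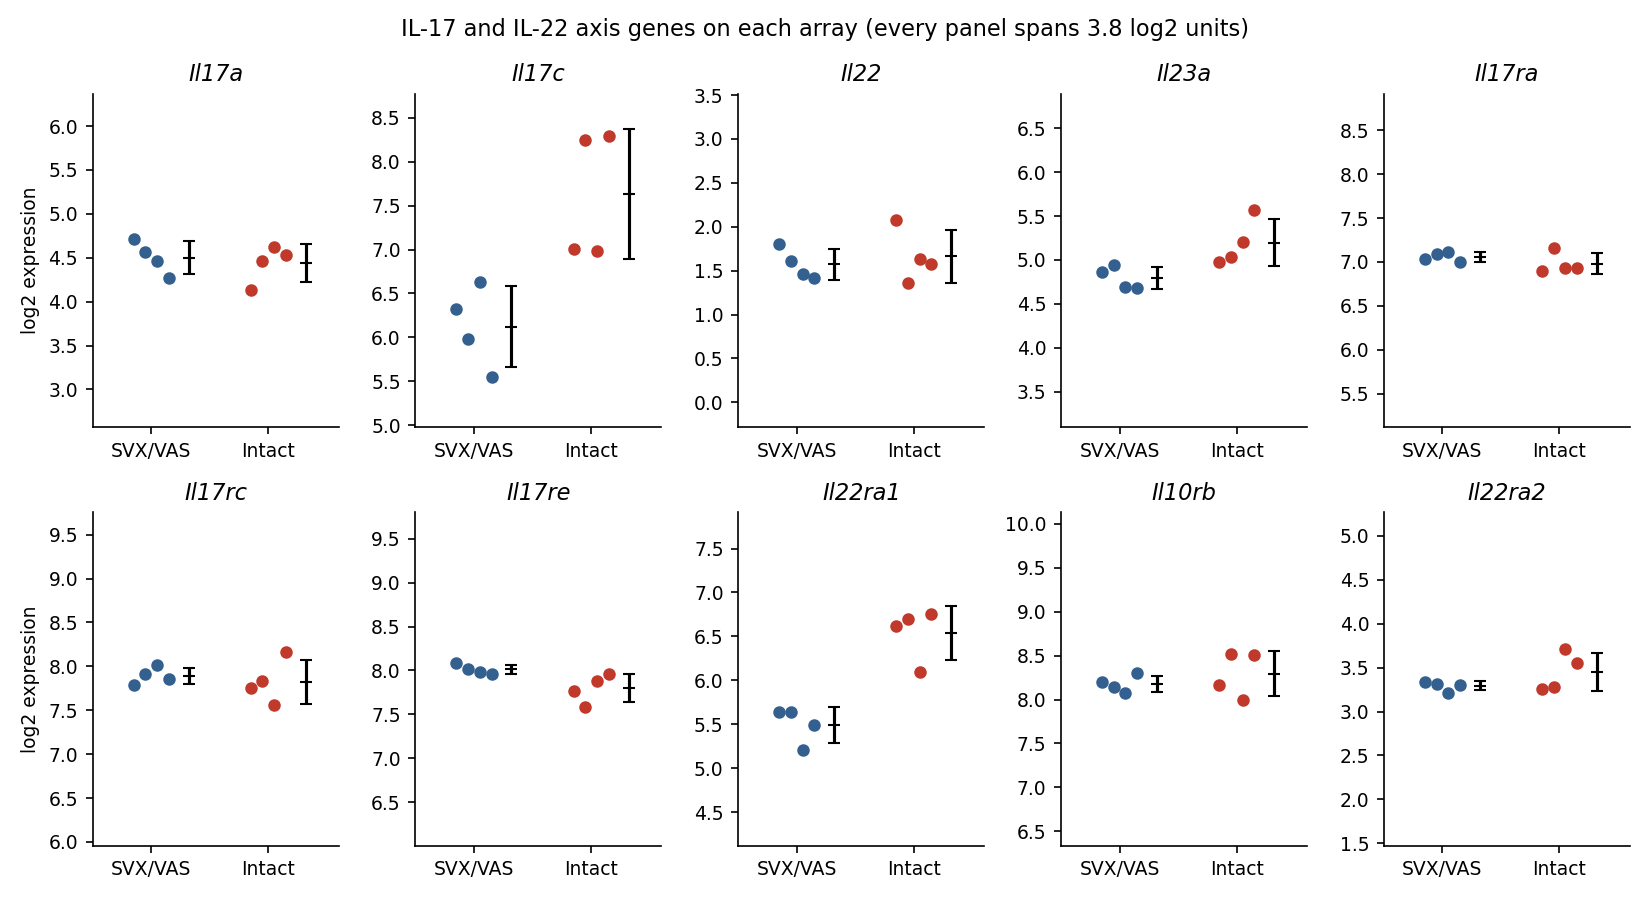
Log2 expression (vertical axis) of each axis gene in the 4 SVX/VAS pools (blue) and the 4 Intact pools (red), with the group mean ± SD in black. Il17c and Il22ra1 stand apart between groups, with lowest Intact values of 6.98 and 6.09 against highest SVX/VAS values of 6.63 and 5.64.

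The 250 bases before the RefSeq start (build GRCm38.p6) of the genes with the largest differences, Il17c and Il22ra1, are shown because both lay higher in every Intact pool. Capitals mark matches to any of 4 motifs searched on both strands: NF-kB as GGGA, any 4 bases and CC, AP-1 as TGANTCA, C/EBP as TTGCNNAA and STAT as TTCNNNGAA.
Il17c, chr8:122421770-122422019, plus strand: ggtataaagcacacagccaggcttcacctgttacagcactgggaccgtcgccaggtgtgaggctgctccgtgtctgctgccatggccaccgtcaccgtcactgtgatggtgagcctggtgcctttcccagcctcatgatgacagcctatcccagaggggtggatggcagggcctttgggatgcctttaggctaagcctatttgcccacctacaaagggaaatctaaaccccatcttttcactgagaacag
Il22ra1, chr4:135727909-135728158, plus strand: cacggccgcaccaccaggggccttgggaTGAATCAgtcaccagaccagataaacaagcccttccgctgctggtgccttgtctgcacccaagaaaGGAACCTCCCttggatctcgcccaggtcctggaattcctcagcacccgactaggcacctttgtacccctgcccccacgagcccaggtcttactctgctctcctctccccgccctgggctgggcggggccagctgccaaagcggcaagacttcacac
The Il22ra1 window held 1 AP-1 match from 222 to 216 bases before the start and 1 NF-kB match on the minus strand from 156 to 147 bases before it, which do not overlap. The Il17c window held no match to these letters. Among 32851 RefSeq windows of this length, 17.6% held the NF-kB letters, 6.75% the AP-1, 9.56% the C/EBP and 7.02% the STAT letters, so a match is a description and not a site. The promoter table matched 6 of the 10 members. Of these, Il17a held the same AP-1 letters, TGAATCA, from 244 to 238 bases before its start. Il17rc held an NF-kB match from 108 to 99 bases before its start. Neither gene differed detectably between groups, so such matches were not particular to the genes that were higher.

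Among the ligands, Il17c, on chromosome 8, read 7.00, 8.25, 6.98 and 8.29 in Intact pools 1 to 4 and 6.32, 5.99, 6.63 and 5.55 in SVX/VAS pools 1 to 4. The Intact pools fell into a lower pair, 1 and 3, and a higher pair, 2 and 4, and the lower pair was still above every SVX/VAS pool. The log2 difference was 1.51 (SE 0.36, 95% interval of the fold 1.61 to 5.03), with an unadjusted p of 0.0025 and adjusted p = 0.16 by limma. The group means were 7.63 ± 0.74 and 6.12 ± 0.46 (SD, n = 4 pools each). Adjusted p-values of Il17c ran from 0.069 to 0.34 over 18 alternative settings.

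Il17a, on chromosome 1, encodes the founding cytokine of the family and read 4.14, 4.47, 4.63 and 4.53 in Intact pools against 4.71, 4.56, 4.46 and 4.27 in SVX/VAS pools. The groups overlapped throughout. The log2 difference was -0.06 (SE 0.14), the 95% interval of the ratio of Intact to SVX/VAS was 0.77 to 1.19, and adjusted p = 0.90 by limma. Its sign turned without Intact replicate 1 (0.04) and without SVX/VAS replicate 1 (0.01).

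Il22, on chromosome 10, gave low values on every array, 2.08, 1.36, 1.63 and 1.58 in Intact pools against 1.80, 1.61, 1.46 and 1.42 in SVX/VAS pools. Its near-identical copy Iltifb, whose reading may share signal with it, lay between 1.53 and 2.43 after Intact mating and between 1.59 and 1.88 after SVX/VAS mating. Neither showed a detectable difference, with log2 differences of 0.09 (SE 0.16, adjusted p = 0.87 by limma) for Il22 and 0.12 (SE 0.19, adjusted p = 0.85 by limma) for Iltifb. The sign of Il22 turned without Intact replicate 1 (-0.05). Background can compress fold changes of dim clusters, and Il17a, Il22, Il22ra2 and Il23a all lay below 5.37, the median of the mean levels of all clusters.

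Il23a, also on chromosome 10, encodes the p19 subunit that pairs with p40 to form IL-23. It read 4.97, 5.04, 5.20 and 5.57 in Intact pools and 4.86, 4.94, 4.69 and 4.68 in SVX/VAS pools, so the groups were separated by only 0.03. The log2 difference was 0.40 (SE 0.14), the 95% interval of the fold was 1.06 to 1.66, and adjusted p = 0.31 by limma. After median centring or quantile normalization of the arrays its groups overlapped. Il12b, which encodes p40 and is named here after seeing its values, had a log2 difference of -0.00 (SE 0.096). Among the other genes of this group, Il12a, a subunit of IL-12, was 1.25-fold higher and the receptor gene Il23r had a log2 difference of 0.07, with adjusted p-values of 0.48 and 0.85 by limma.

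Among the receptors, Il22ra1, on chromosome 4, encodes the chain that confines IL-22 responses to epithelial and other non-blood cells. Its values were 6.61, 6.69, 6.09 and 6.75 in Intact pools and 5.64, 5.64, 5.20 and 5.50 in SVX/VAS pools. The lowest Intact pool, the third, exceeded the highest SVX/VAS pool by 0.45. The log2 difference was 1.04 (SE 0.17), the 95% interval of the fold was 1.59 to 2.68, and limma gave an unadjusted p of 0.00015, the 92nd smallest of all clusters, with adjusted p = 0.067. That call is borderline: it passed in 5 of 18 alternative settings, among them clusters with 1 symbol (adjusted p = 0.019) and the fit without Intact replicate 3 (adjusted p = 0.026), and it reached 0.19 with the replicate number as a block. The log2 difference itself stayed between 0.95 and 1.19 in all 18.

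Il10rb, on chromosome 16, encodes the partner chain, which the IL-10 receptor also uses, and read 8.16, 8.51, 7.99 and 8.50 in Intact pools against 8.20, 8.14, 8.08 and 8.30 in SVX/VAS pools. Its groups overlapped, with a log2 difference of 0.11 (SE 0.14) and adjusted p = 0.79 by limma. Il22ra2, on chromosome 10, read 3.26, 3.28, 3.72 and 3.55 in Intact pools and 3.34, 3.32, 3.22 and 3.31 in SVX/VAS pools. Intact pools 3 and 4 were above every SVX/VAS pool and pools 1 and 2 were not. The log2 difference of Il22ra2 was 0.16 (SE 0.12), with adjusted p = 0.66 by limma. Il20ra, a receptor chain for the related cytokines IL-19, IL-20 and IL-24, was 1.19-fold higher (adjusted p = 0.46 by limma), and the remaining chains Il20rb and Il10ra each had a log2 difference of 0.05.

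None of the receptor genes for IL-17 among the members was detectably different. Il17re, on chromosome 6, encodes the specific chain for IL-17C and read 7.77, 7.58, 7.88 and 7.96 in Intact pools against 8.09, 8.02, 7.99 and 7.96 in SVX/VAS pools. The highest Intact pool and the lowest SVX/VAS pool were level, and the other Intact pools lay below. The log2 difference was -0.21 (SE 0.10, 95% interval -0.45 to 0.02), with adjusted p = 0.46 by limma, and the authors' deposited table gave an unadjusted p of 0.046 at 1.16-fold lower.

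Il17ra, on chromosome 6, encodes the chain shared across the family and read 6.90, 7.16, 6.93 and 6.93 in Intact pools against 7.03, 7.09, 7.12 and 6.99 in SVX/VAS pools. Il17rc, on the same chromosome, read 7.75, 7.83, 7.56 and 8.16 in Intact pools and 7.79, 7.91, 8.01 and 7.85 in SVX/VAS pools. Both overlapped between groups, with 95% intervals of the ratio from 0.82 to 1.10 for Il17ra and from 0.78 to 1.18 for Il17rc and adjusted p-values of 0.78 and 0.89 by limma. The sign of Il17rc turned without Intact replicate 3 (0.02). Il17rb, the chain for IL-25 and IL-17B, was 1.30-fold lower (log2 -0.38, SE 0.13, adjusted p = 0.30 by limma), and Il17rd, which encodes a modulator of the family, was 1.22-fold higher (adjusted p = 0.49 by limma).

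**Figure D2:**
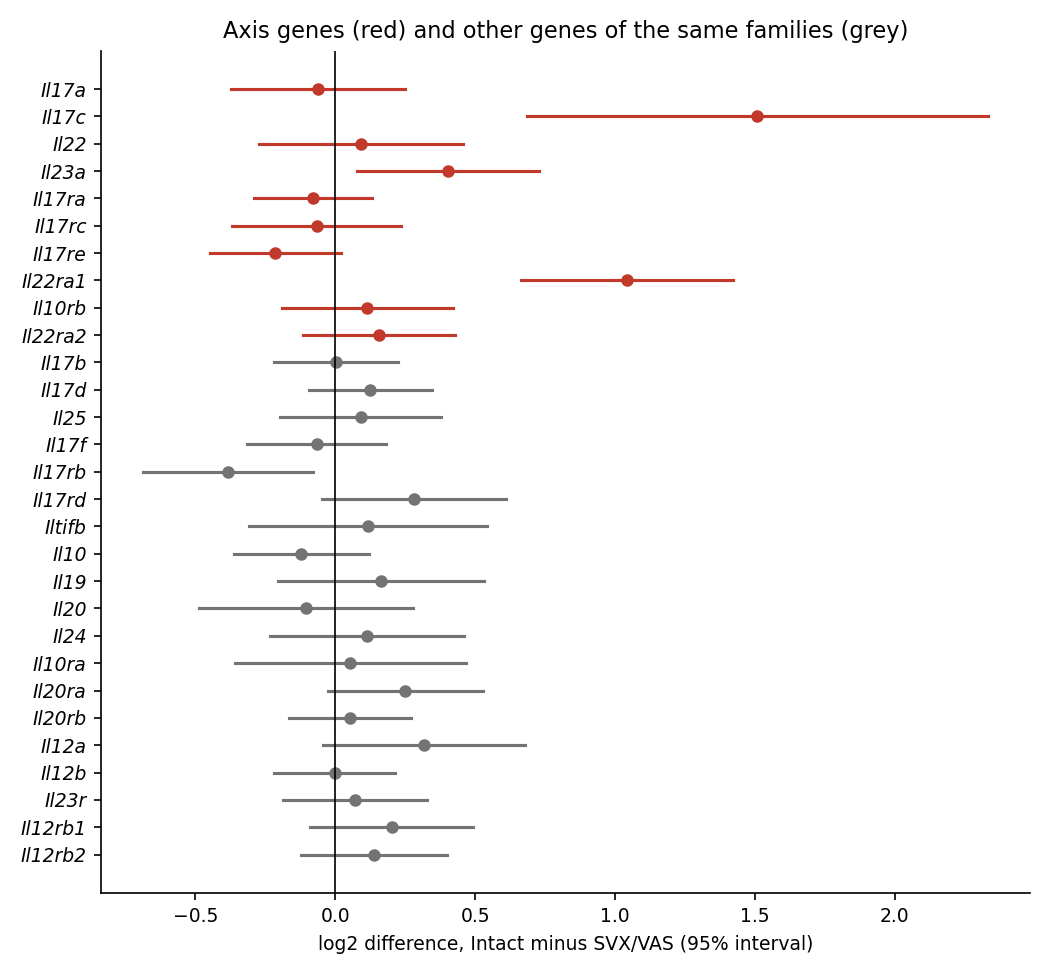
Log2 difference, Intact minus SVX/VAS, with its 95% interval from limma for the 10 axis genes (red) and 19 other genes of the same cytokine and receptor families (grey). Il17c (1.51) and Il22ra1 (1.04) lie farthest from 0, and most intervals of the other genes span 0.

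Of the other IL-17 ligand genes, Il17d was 1.09-fold higher, Il25 1.07-fold higher, Il17f 1.05-fold lower and Il17b 1.00-fold higher, each with overlapping groups and adjusted p-values from 0.66 to 1.00 by limma. Il17f encodes the closest relative of IL-17A. In the IL-22 and IL-10 family Il10 was 1.09-fold lower, and Il19 and Il24 had log2 differences of 0.16 and 0.11, with adjusted p-values from 0.70 to 0.82 by limma. None of the 6 IL-17 ligands, 5 IL-17 receptors, 6 IL-22 and IL-10 family ligands, 6 receptors of that family or 6 IL-23 and IL-12 genes was called in limma. At an unadjusted p under 0.05, Il17rb was the 1 gene among them outside the 10 members.

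**Figure D3:**
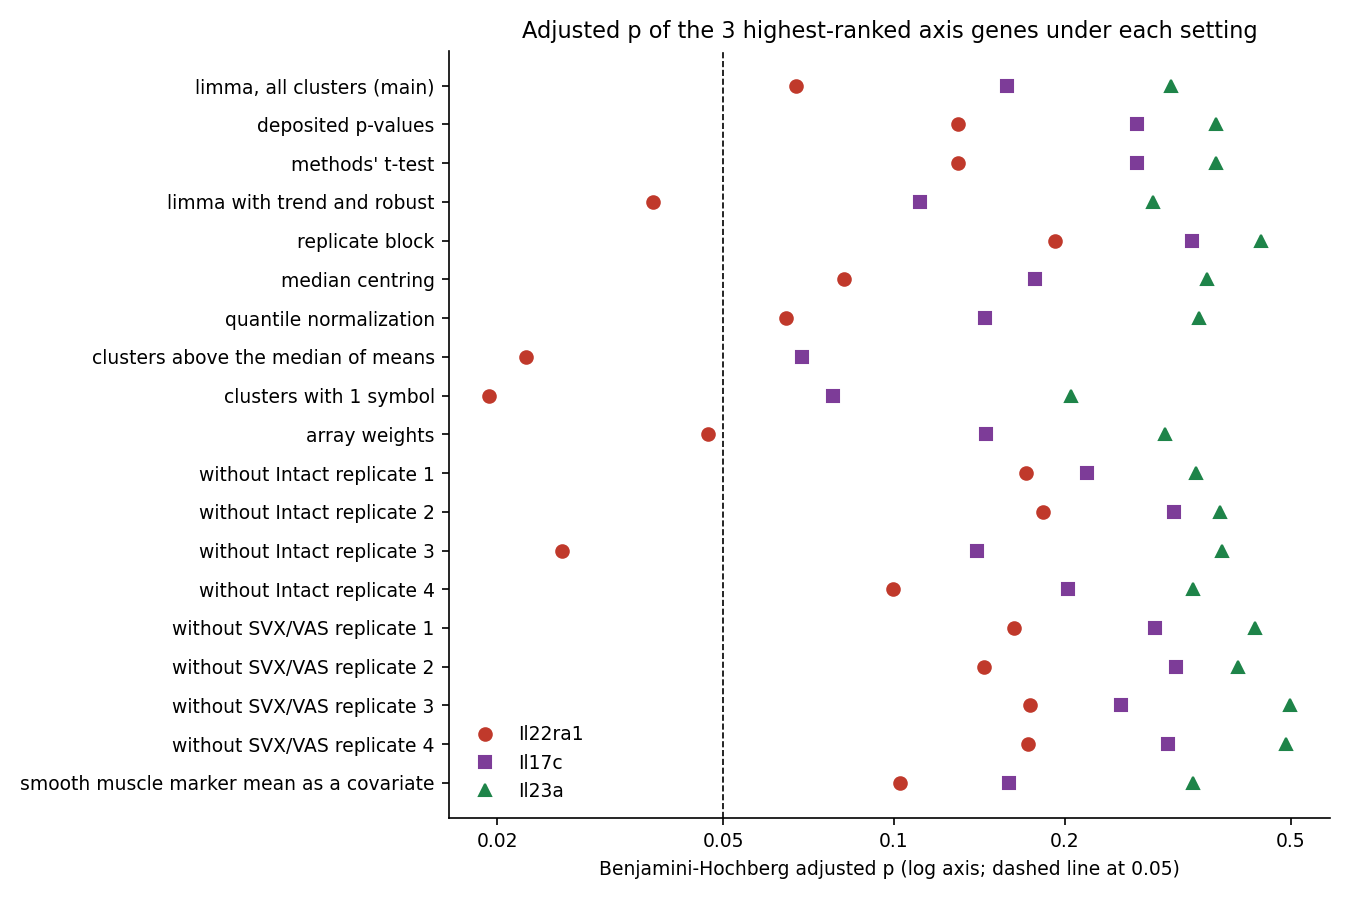
Benjamini-Hochberg adjusted p (horizontal log axis, dashed line at 0.05) of Il22ra1, Il17c and Il23a under the reported fit and each alternative. Il22ra1 lies left of the line in 5 alternatives, its lowest value being 0.019, while Il17c does not go below 0.069 or Il23a below 0.20.

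Of 18 measured genes that carry or restrain the IL-17 receptor signal inside the cell, 0 were called in limma, and 5 were higher and 1 lower at an unadjusted p under 0.05, against 5.13% and 6.78% of all clusters. Under the alternative settings 0 to 3 were called, the 3 being among clusters above the median of means and among clusters with 1 symbol. In those settings 358 of 20672 and 234 of 27037 clusters were called. Judged by the authors' deposited table, 3 passed those criteria as higher (0.733% of all clusters) and 0 as lower (1.12%), the 3 being Tnfaip3, Zc3h12a and Cebpd. Tnfaip3 encodes A20, a ubiquitin-editing brake on NF-kB, and read 8.13, 9.10, 8.03 and 9.01 in Intact pools against 6.96, 7.33, 7.18 and 6.72 in SVX/VAS pools. As for Il17c, pools 2 and 4 were the highest, and the difference was 2.87-fold (adjusted p = 0.087 by limma). Zc3h12a, an RNase that limits IL-17 signals by degrading their mRNAs, was 1.78-fold higher and Cebpd, a transcription factor induced by IL-17, was 1.62-fold higher, with adjusted p-values of 0.075 and 0.057 by limma. Ikbke, a kinase that phosphorylates the adaptor Act1, was 1.46-fold higher (adjusted p = 0.25 by limma). The median log2 difference of the list was 0.13. It shares Zc3h12a and Nfkbiz, the latter named here after seeing its values, with the IL-17 response list below. Both were among the 5 higher genes, so the counts of the lists are not independent.

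Signalling genes of the IL-22 and IL-23 receptors were split in direction. Of 10 measured, 0 were called in limma, 2 were higher and 2 lower at an unadjusted p under 0.05 (5.13% and 6.78% of all clusters), and the median log2 difference was 0.05. Under the alternative settings 0 to 2 were called. The kinase gene Jak2 read 10.08, 10.03, 10.15 and 9.99 in Intact pools and 10.49, 10.58, 10.67 and 10.66 in SVX/VAS pools. Every Intact pool of Jak2 was below every SVX/VAS pool, a difference of 1.45-fold (adjusted p = 0.069 by limma). Tyk2, the kinase bound to IL-10RB, was 1.26-fold lower (adjusted p = 0.24 by limma). Bcl3, an atypical IkB protein, was 1.71-fold higher (adjusted p = 0.11 by limma).

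Of 25 measured genes known to respond to IL-17, 3 were called higher after Intact mating by limma (Csf3, Cxcl5 and Il1b), 0 lower and 22 neither. Over all clusters, 0.0508% were called higher and 0.0314% lower. At an unadjusted p under 0.05, 16 of the 25 were higher and 0 lower, against 5.13% and 6.78% of all clusters. In 13 of the 25 the groups did not overlap, all higher, against 3.37% of all clusters, and the median log2 difference was 0.70 against 0.0005. This list, like the others, was chosen with earlier results of these data known, so the counts describe it and do not test it. Many genes of the list are also textbook targets of TNF, IL-1 and Toll-like receptors, so the list is not specific to IL-17. Lcn2, S100a8, S100a9 and Mmp9 are on the neutrophil marker list below too, at unlike levels. Over all pools Lcn2 read 12.77 to 13.18, S100a8 2.45 to 4.19, S100a9 4.24 to 6.25 and Mmp9 4.89 to 5.35. The count of calls depended on single arrays: it was 0 without Intact replicate 1 and without SVX/VAS replicates 1, 3 and 4, 1 without Intact replicates 2 and 4 and without SVX/VAS replicate 2, and 4 without Intact replicate 3. It also depended on the method, with 6 among clusters above the median of means and among clusters with 1 symbol, 1 with the deposited p-values or the methods' t-test, and 0 with the replicate block. Calls over all clusters moved too, from 2 to 50 when 1 array was left out. They were 358 of 20672 above the median of means and 234 of 27037 with 1 symbol. With the deposited p-values or the methods' t-test they were 10, and with the replicate block 0.

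Cxcl5, a neutrophil chemokine that epithelia make in response to IL-17, read 9.10, 9.91, 8.67 and 9.79 in Intact pools against 7.32, 7.07, 7.29 and 6.92 in SVX/VAS pools. Again Intact pools 2 and 4 were highest, and the difference was 4.66-fold (adjusted p = 0.033 by limma). Csf3, the gene for G-CSF, a growth factor of neutrophils, read 7.58, 7.66, 7.37 and 7.54 against 6.42, 6.44, 6.33 and 6.44. Its Intact pools were close together, and the difference was 2.19-fold (adjusted p = 0.0095 by limma). Il1b, an inflammatory cytokine, read 6.48, 7.02, 6.46 and 7.32 against 5.35, 5.15, 4.48 and 4.87, a difference of 3.62-fold (adjusted p = 0.042 by limma). Cxcl1, Cxcl2 and Tnf were 2.61-fold, 3.34-fold and 2.40-fold higher with adjusted p-values of 0.096, 0.16 and 0.11 by limma.

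**Figure D4:**
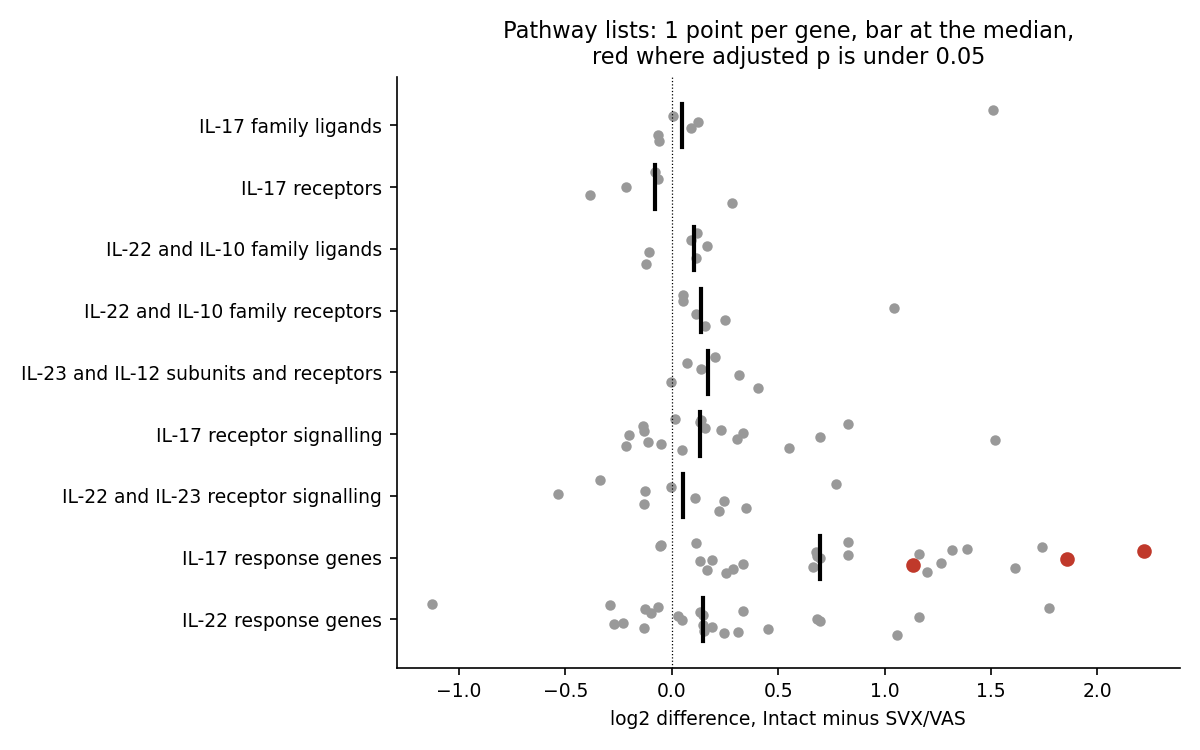
Log2 difference, Intact minus SVX/VAS, of every measured gene in 9 pathway lists, with 1 point for each gene, a bar at the list's median and red points where the adjusted p from limma is under 0.05. The IL-17 response list has its median at 0.70 and holds the 3 red points, and the IL-22 response list has its median at 0.15.

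Of 24 measured genes known to respond to IL-22, 0 were called in limma, 7 were higher and 2 lower at an unadjusted p under 0.05 (5.13% and 6.78% of all clusters), and the median log2 difference was 0.15. In 6 of the 18 alternative settings 1 gene of this list was called, in each case as lower. The list shares Lcn2, S100a8, S100a9 and Steap4 with the IL-17 list. Il18, an epithelial IL-1 family cytokine, read 6.58, 6.16, 6.46 and 6.14 in Intact pools and 7.77, 7.29, 7.22 and 7.56 in SVX/VAS pools, a difference of 2.18-fold lower (adjusted p = 0.053 by limma). Nos2, the inducible nitric oxide synthase, was 2.08-fold higher and Duoxa2, a maturation factor of an epithelial oxidase, was 1.37-fold higher, with adjusted p-values of 0.16 and 0.23 by limma. Reg3b and Reg3g, antimicrobial lectins that IL-22 induces in gut and named here after seeing their values, had log2 differences of 0.03 and 0.13 (adjusted p of 0.96 and 0.70 by limma).

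Steap4, a metalloreductase in both response lists, read 7.41, 8.09, 7.17 and 6.84 in Intact pools and 5.65, 5.72, 5.99 and 7.50 in SVX/VAS pools. SVX/VAS pool 4 lay among the Intact pools. Saa3, an acute phase protein gene chosen after its values were seen, did the same, with 8.34, 8.98, 7.50 and 7.58 after Intact mating and 5.23, 5.40, 6.27 and 8.40 after SVX/VAS mating. The same SVX/VAS pool had the lowest Il17c value, 5.55. Differences were 2.24-fold for Steap4 and 3.42-fold for Saa3, with adjusted p-values of 0.32 and 0.33 by limma.

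Markers of cells that could carry these transcripts were examined as whole lists, by the mean log2 value of the list on each array. The 17 epithelial markers averaged 9.21 to 9.55 in Intact pools and 9.29 to 9.45 in SVX/VAS pools, so the ranges overlapped, with 0 called. These and the stromal means below lay above the median of all clusters, 5.37. So did the smooth muscle, endothelial and macrophage and dendritic cell means below, so this level does not tell tissue layers apart. Within that list Klf5 was 1.43-fold higher, Krt18 1.33-fold lower and Ovol2 1.42-fold lower, with adjusted p-values from 0.15 to 0.20 by limma. The 19 markers of type 17 lymphocytes averaged 5.33 to 5.49 against 5.36 to 5.44, with 0 called. The 10 T cell markers averaged 4.82 to 4.99 against 4.851 to 4.996, with 0 called.

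The 18 neutrophil markers averaged 5.20 to 5.34 in Intact pools and 4.90 to 5.07 in SVX/VAS pools, so the ranges did not overlap, with 0 called. All of these means lay below 5.37, the median of the mean levels of all clusters. At an unadjusted p under 0.05, 5 were higher and 1 lower, against 5.13% and 6.78% of all clusters, and the median log2 difference was 0.20. Within the list Hdc, histidine decarboxylase, was 1.87-fold higher, the decoy receptor gene Il1r2 1.33-fold higher and Trem1, a receptor that amplifies inflammation, 1.30-fold higher, with adjusted p-values of 0.092, 0.19 and 0.29 by limma. The 1 gene lower at that threshold was Ly6g, the defining surface marker of mouse neutrophils, at 1.29-fold lower (adjusted p = 0.20 by limma). The part of these cells in the values of Il17c, Il22ra1 and the IL-17 response genes was not tested.

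The 10 smooth muscle markers averaged 6.52, 7.43, 7.06 and 7.44 in Intact pools and 6.72, 7.02, 7.22 and 7.22 in SVX/VAS pools. Where in the uterus these transcripts came from was not measured. Intact pools 2 and 4, the highest for Il17c, Tnfaip3 and Cxcl5, were also the highest of all 8 arrays for the smooth muscle mean. SVX/VAS pools did not follow that order. Pool 4, level with pool 3 at 7.22, had the lowest Il17c (5.55), Tnfaip3 (6.72) and Cxcl5 (6.92). SVX/VAS pool 1, with the lowest mean of its group, 6.72, had its highest Cxcl5 (7.32). A link of the mean with these genes was not tested. With the mean as a covariate, an alternative chosen after seeing the data, the log2 difference was 1.44 for Il17c (adjusted p = 0.16 by limma) and 1.04 for Il22ra1 (adjusted p = 0.10 by limma). The 13 stromal markers averaged 7.53 to 8.16 in Intact pools and 7.80 to 8.33 in SVX/VAS pools, and the 8 endothelial markers 5.60 to 6.48 and 5.95 to 6.35, with 0 called in either. Median log2 differences were -0.27 for the stromal, -0.13 for the endothelial and 0.10 for the smooth muscle list. At an unadjusted p under 0.05 by limma, 0 stromal markers were higher and 1 lower, against 5.13% and 6.78% of all clusters. Intact pool 1 had the lowest mean of all arrays in the smooth muscle, stromal and endothelial lists. The 13 macrophage and dendritic cell markers averaged 6.05 to 6.29 and 6.09 to 6.29, again with 0 called.

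**Figure D5:**
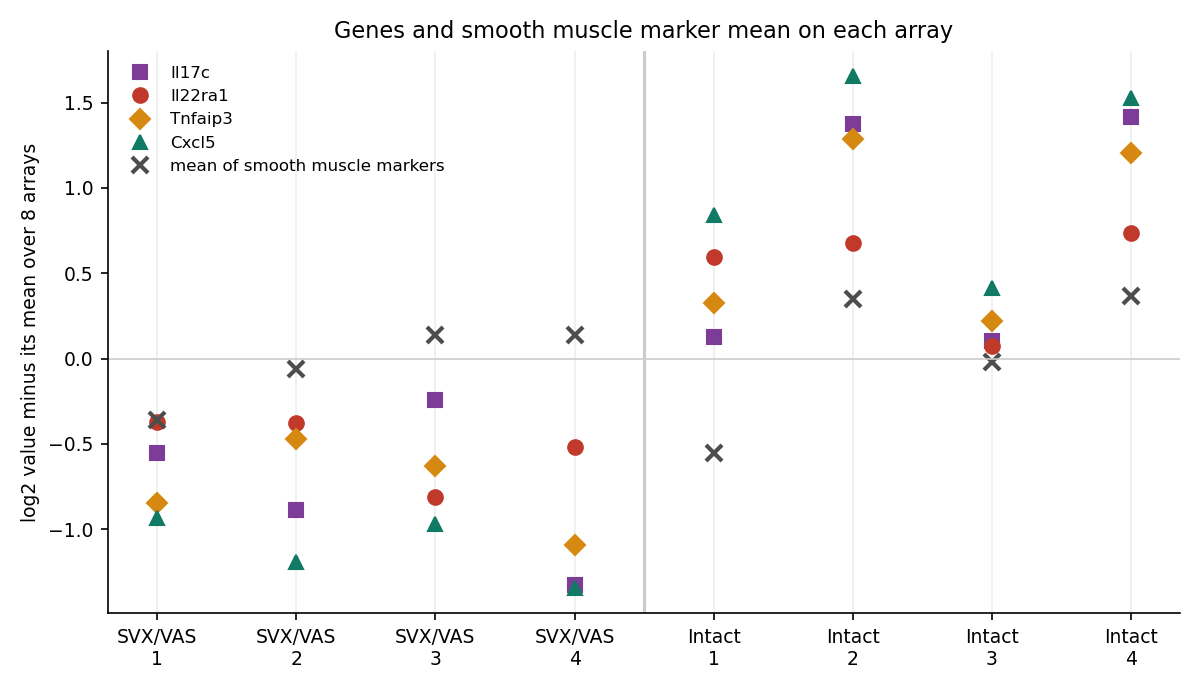
Log2 value minus its mean over the 8 arrays (vertical axis) for Il17c, Il22ra1, Tnfaip3, Cxcl5 and the mean of the 10 smooth muscle markers on each array. The 4 genes are above 0 in every Intact pool and below 0 in every SVX/VAS pool, and the marker mean is highest in Intact pools 2 and 4 and lowest in Intact pool 1.

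Likeness to the ligand and the receptor with the smallest p was measured by Pearson's correlation of log2 values over the 8 arrays with group means taken off. For Il17c the closest named genes were Exoc2 (0.985), Ctxn1 (0.984) and Pdcl3 (0.982), and for Il22ra1 they were Psmc5, Gm13580 and Sp1, at 0.991, 0.991 and 0.990. None of the 6 differed detectably between groups, with adjusted p-values from 0.50 to 0.92 by limma. These are the highest values among all clusters with a symbol over few arrays, and they are given as a description.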

How the data were processed

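The authors deposited log2 values per array, made in Partek Genomics Suite 6.6 with RMA background correction, GC content correction and mean probe summarization, per the series text and the submitters' processing notes. These sources name no genome build for the array annotation. The authors' deposited comparison table adds a ratio (Intact over SVX/VAS), an unadjusted p-value and, as score columns, sums of squares, per the file headers. The group mean differences of the log2 values equalled log2 of the deposited ratio to within 5.95e-05 in all 41345 clusters, which fixes scale and direction.

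From these values limma 3.58.1 (R 4.3.3) fitted the 2 groups of 4 arrays over all 41345 clusters with empirical Bayes moderation, two-sided, with Benjamini-Hochberg adjustment, and was tested on simulated data. All standard errors, intervals and p-values are limma's unless the authors' deposited table is named. A gene is represented by its lowest cluster ID.

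The members, the gene lists and the tests were chosen with earlier results of these data known. Named genes were the members, every called gene of a list and up to 4 others of each list with the smallest p, and any other gene is said to be chosen after its values were seen. Scart1 and Adgre1 were matched as Cd163l1 and Emr1 through RefSeq synonyms. Promoter windows came from RefSeq, GRCm38.p6. No file gives array batches or scan dates. Same-numbered Intact and SVX/VAS arrays had deviations from their group means that correlated between -0.03 and 0.07, within the -0.10 to 0.11 of the other pairs. These correlations over few arrays cannot settle whether the numbers pair the samples, which is not known. There were 18 alternative settings. Some genes of the lists are not reported here by name.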

Additional observations from a re-analysis of the deposited data

Results flagged for a closer look

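In groups of 4 arrays, an array was singled out where its gap to the nearest other exceeded Dixon's 95% critical share of the group's range. Chance alone does this in about 1 of 20 groups, and it happened in 5 of 156 groups of named genes. Among the 20 groups of the members it was Il17ra, at 7.16 in Intact pool 2 against 6.90 to 6.93 in the others. The remaining ones were Iltifb at 1.59 in SVX/VAS pool 1 (others 1.85 to 1.88), Cd3d at 4.99 in Intact pool 2 (others 5.07), Ly6g at 6.46 in SVX/VAS pool 2 (others 6.27 to 6.30) and Kdr at 6.57 in SVX/VAS pool 3 (others 6.22 to 6.27).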

How the results depend on the processing

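Calls over all clusters moved widely. Against 34 in the reported fit there were 10 with the deposited p-values and 10 by the methods' t-test, 173 with a trend and robust moderation, 0 with the replicate number as a block, 54 after quantile normalization, 358 among clusters above the median of means, 234 among clusters with 1 symbol, 77 with array weights and 22 with the smooth muscle covariate, an alternative chosen after seeing the data. Leaving out 1 array gave 2 to 50. Whether the replicate numbers pair the arrays is not known, and the replicate block left 0 members called. Members called were 0 in the reported fit and 1, Il22ra1, with trend and robust moderation, above the median of means, with 1 symbol and with array weights, and 0 to 1 when leaving out an array, the 1 arising without Intact replicate 3. Fewer clusters tested or fewer samples are part of some of these settings; otherwise the cause was not tested. Among members, signs turned only when 1 array was left out, for Il17a (range -0.14 to 0.039, above 0 also at 0.0084), Il22 (-0.048 to 0.19) and Il17rc (-0.18 to 0.023). Members past the submitters' criteria stayed at 2 by the methods' t-test, and members without overlap were 2 after either rescaling, against 3. Each member has 1 cluster, so another representing cluster could not be tried.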
